A study of Homo sapiens with 21 samples.

Results

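MYC drives growth, and the genes described here are its transcription-factor network together with the glucose-sensing branch that joins it: MYC, MAX, MXD1, MXD3, MXD4, MXI1, MNT, MLXIP, TXNIP and ARRDC4. These 10 genes were taken by name from the 65065 genes of the count table, and all 10 were found by symbol. MYC is a basic helix-loop-helix leucine zipper protein that binds DNA as a dimer with MAX, at E-boxes of the form CACGTG, and raises genes of ribosome production, nucleotide synthesis and the cell cycle. The MXD proteins, MXI1 and MNT also pair with MAX, bind the same sites and recruit SIN3 and histone deacetylases, so they oppose MYC. MLXIP (MondoA) pairs with MLX instead, moves to the nucleus when glucose 6-phosphate is plentiful, and switches on TXNIP and ARRDC4, a pair of alpha-arrestins that limit glucose uptake.

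The cells were HCT-116, a human colorectal carcinoma line with an epithelial-like form, grown in DMEM with serum depleted of exosomes. They were given extracellular vesicles (EVs), small membrane-bound particles isolated by the GlyExo-Capture method from serum, at 0.048, 0.24 or 1.2 mg/mL. EVs came from HCC patients (HCC+) or from healthy people (HCC-), and cells without EVs were the blank, which makes 7 groups of 3 poly(A) RNA libraries, 21 in all. The sources used here give neither how many sera went into a preparation nor how long the cells were exposed. Whether libraries with the same label stem from separate cultures is not stated either, so a p-value measures the spread between these libraries only, which may be technical.

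Libraries held 31.22 to 64.01 M counts. Enough reads for a test were found in 19556 genes, 9 of the 10 members among them, all except TXNIP. Levels are counts per M counts (CPM) scaled with TMM factors, and levels of different genes are compared only as CPM per kilobase of exon. Differences are log2 fold changes ± SE from edgeR's quasi-likelihood F test over all 21 libraries, and a gene is said to rise or fall where its Benjamini-Hochberg adjusted p over all tested genes was under 0.05. Epithelial markers, led by KRT8, KRT19 and KRT18, were present in every library, while VIL1 and CDX1 were at or near 0. They summed to 3897 to 4146 CPM with HCC+ at 1.2 mg/mL, 3286 to 3558 CPM with HCC- at 1.2 mg/mL, below every other group on the TMM scale, and 3675 to 4473 CPM in the blank. TMM factors were 1.163 to 1.165 with HCC- at 1.2 mg/mL and 0.946 to 0.977 in the blank. The sums were not compared on total counts alone. With HCC- EVs at 1.2 mg/mL EPCAM (-0.31), KRT8 (-0.27, but 0.01 on total counts alone) and KRT18 (-0.46) fell, while CDX2 rose (0.32). KRT19 (0.14) and CDH1 (-0.10) did not pass. The EPCAM fall was lost on total counts alone (-0.03, adjusted p = 0.722) and with GC and length trends removed (-0.07, adjusted p = 0.231). Markers of blood, endothelial and liver cells, 25 genes, summed to 14.03 to 17.02 CPM in the HCC+ 1.2 mg/mL libraries, 17.2 to 22.1 CPM in the HCC- 1.2 mg/mL libraries and 8.70 to 9.43 CPM in the blank. Of these 25 genes, 6, 6 and 8 were at 0 in all libraries of those groups, S100A8, S100A9, PPBP, PF4 and AFP among them. At 1.2 mg/mL PECAM1 (4.22 with HCC+ and 5.52 with HCC- EVs), LYZ (3.51 and 5.13) and CD14 (1.97 and 3.43) rose. VWF (1.60 and 2.65) and HLA-DRA (1.19 and 1.56) rose too. SERPINA1 rose with HCC+ (0.58), SLC4A1 rose with HCC- (2.74) and GP1BA fell with HCC- EVs (-0.76). Levels were low, PECAM1 averaging 1.59 and 3.91 CPM against 0.0896 CPM in the blank. These genes were named after their values had been seen. NEAT1 and MALAT1, nuclear RNAs that can mark RNA quality, summed to 342 to 403 CPM with HCC+ at 1.2 mg/mL, 413 to 502 CPM with HCC- at 1.2 mg/mL and 222 to 287 CPM in the blank. With HCC+ at 0.048 mg/mL the sum was 284 to 412 CPM. At 1.2 mg/mL NEAT1 rose (0.96 with HCC+ and 1.71 with HCC- EVs), while MALAT1 did not pass (0.35 and 0.31). The part of these markers in the results below was not tested.

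The DNA that these proteins read can be seen in the promoters of the members themselves. The stretches shown are the 250 bases before the RefSeq transcription start (GRCh38.p14), read 5′ to 3′ on the gene's strand, for both glucose-sensing targets and for the 2 members that rose most. Capitals mark an E-box (CACGTG) or the paired E-box-like motif that MLXIP:MLX reads (CACGNG, then NNNNN, then CACGNG), searched on both strands. TXNIP lies on the minus strand, chr1:145996580-145996829, ARRDC4 on the plus strand, chr15:97960453-97960702, MXD4 on the minus strand, chr4:2262110-2262359, and MXD1 on the plus strand, chr2:69914859-69915108.
TXNIP: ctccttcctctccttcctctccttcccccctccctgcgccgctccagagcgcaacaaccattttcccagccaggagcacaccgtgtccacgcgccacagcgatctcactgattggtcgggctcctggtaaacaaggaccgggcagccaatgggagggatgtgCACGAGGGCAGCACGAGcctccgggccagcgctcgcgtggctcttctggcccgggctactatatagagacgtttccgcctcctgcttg
ARRDC4: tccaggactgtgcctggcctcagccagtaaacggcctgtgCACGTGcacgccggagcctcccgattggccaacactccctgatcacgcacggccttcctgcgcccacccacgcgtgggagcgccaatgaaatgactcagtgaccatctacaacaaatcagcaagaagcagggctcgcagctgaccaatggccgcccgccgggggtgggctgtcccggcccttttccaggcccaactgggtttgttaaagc
MXD4: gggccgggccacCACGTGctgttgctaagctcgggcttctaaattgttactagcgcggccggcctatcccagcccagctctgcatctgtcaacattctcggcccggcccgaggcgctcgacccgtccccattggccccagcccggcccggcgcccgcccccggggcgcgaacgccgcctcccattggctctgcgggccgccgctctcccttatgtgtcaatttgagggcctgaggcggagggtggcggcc
MXD1: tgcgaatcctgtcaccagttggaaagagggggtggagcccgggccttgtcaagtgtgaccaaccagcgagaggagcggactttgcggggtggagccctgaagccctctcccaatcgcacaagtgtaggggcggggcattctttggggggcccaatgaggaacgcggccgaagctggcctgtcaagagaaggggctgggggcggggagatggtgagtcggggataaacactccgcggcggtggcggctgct
The TXNIP window holds the paired motif 88 bases before the start, with a CCAAT box (CCAAT on either strand) 105 and 140 bases before it. The paired motif was in 16 of 35116 promoters of this length, 0.0456%. ARRDC4 has an E-box 210 bases before its start and MXD4 has one 238 bases before it, while MXD1 has none in this window. MNT also has an E-box, 193 bases before its start, and no window of MXD3, MXI1, MLXIP or MAX holds an E-box or the paired motif. An E-box was in 6.34% of all promoters. CCAAT boxes were not particular to TXNIP: ARRDC4, MXD4, MXD1, MXD3 and MLXIP also have them, as did 32.0% of all promoters. These motifs were chosen with the sequences in view, and a match is a description of letters, not a bound site.

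In the blank, MYC stood far above its network per length of transcript. MYC had 96.1 ± 9.36 CPM per kb (mean ± SD, n = 3 libraries), followed by MLXIP at 9.76 ± 0.757, MAX at 8.72 ± 0.301 and MXI1 at 8.34 ± 0.561. MXD4 had 4.38 ± 0.376, MXD3 2.56 ± 0.341, MNT 2.50 ± 0.384, ARRDC4 1.64 ± 0.115 and MXD1 0.911 ± 0.0663 CPM per kb. The antagonists were thus all expressed in untreated cells, each at a small part of the MYC level, with MXI1 the most abundant of them and MXD1 the least.

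With HCC+ EVs at 1.2 mg/mL against the blank, MXD4, MXD1 and MLXIP rose and MYC and ARRDC4 fell, 5 of the 9 tested members, where 33.0% of all tested genes passed (15.6% higher and 17.4% lower). With HCC- EVs at 1.2 mg/mL, MXD4, MXD1 and MLXIP rose and MYC, MAX and MXD3 fell, 6 of 9, where 53.3% of all tested genes passed (24.8% higher and 28.5% lower). The EV libraries lay wholly above or below the blank in 6 of the 9 with each source, beside 39.9% of all tested genes with HCC+ and 56.3% with HCC- EVs. A large part of the transcriptome moved at this dose, so the number of calls says nothing particular about these genes. The median log2 fold change of the 9 was -0.01 with HCC+ and 0.00 with HCC- EVs, beside 0.01 and 0.05 over all tested genes. With libraries scaled to total counts alone, 4 rose and 2 fell with HCC+ EVs, and 5 rose and 0 fell with HCC- EVs. Over all called genes 47.3% were higher with HCC+ and 46.5% with HCC- EVs, and on total counts alone these shares were 69.2% and 72.4%. Both comparisons share the 3 blank libraries. In bulk RNA, fewer cells that express a gene and less RNA per cell cannot be told apart.

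**Figure D1:**
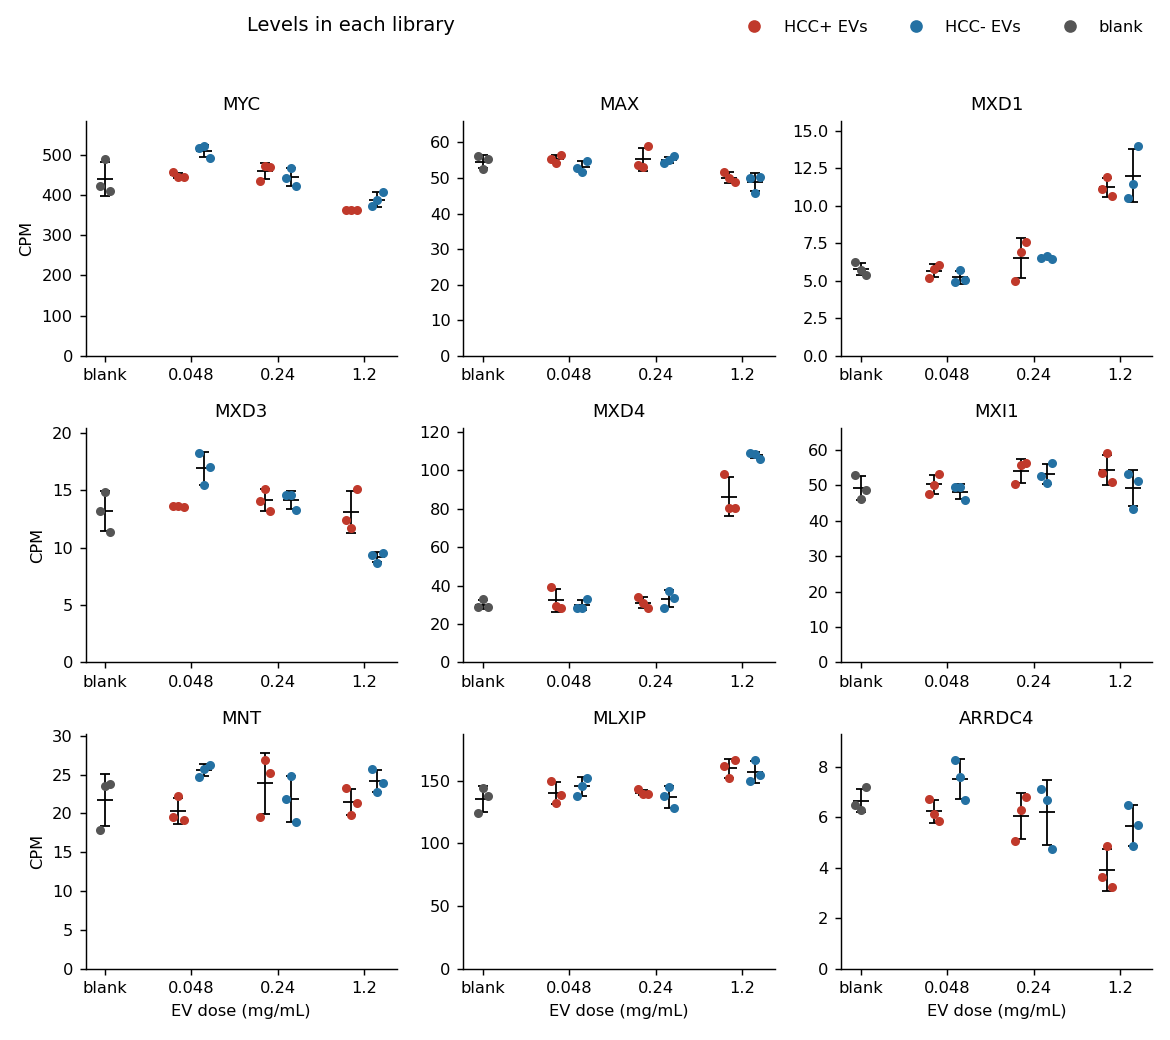
Level of 9 members in every library, in CPM, against EV dose in mg/mL, with the blank at the left. Points are libraries, bars are mean ± SD of 3. MXD4 and MXD1 stand clear of all other groups at 1.2 mg/mL of either source, MYC lies lowest there, and MXD3 is low only with HCC- EVs at 1.2 mg/mL.

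MYC itself, the activator at the centre of the network, was slightly lower at the highest EV dose. It had 363, 362 and 362 CPM with HCC+ at 1.2 mg/mL, 372, 388 and 407 CPM with HCC- at 1.2 mg/mL and 422, 489 and 409 CPM in the blank. All 6 libraries at 1.2 mg/mL lay below all 15 others, which spanned 409 to 521 CPM with a median of 457 and began just above them. MYC fell by 0.28 ± 0.06 on the log2 scale with HCC+ EVs (adjusted p = 0.000388), 1.22-fold lower, and by 0.18 ± 0.06 with HCC- EVs (adjusted p = 0.0113), 1.13-fold lower. Scaled to total counts alone, which moved the median of all tested genes to 0.13 with HCC+ and 0.33 with HCC- EVs, the change was -0.16 with HCC+ (adjusted p = 0.0263) and 0.10 with HCC- EVs (adjusted p = 0.112). The HCC- call held in 9 of 13 alternatives. It was also lost with only the groups compared (-0.16, adjusted p = 0.115), and without HCC- 1.2 mg/mL replicate 1 (-0.14, adjusted p = 0.0822) or blank replicate 2 (-0.11, adjusted p = 0.112). MYC lay below the median of all tested genes in either scaling. A change of scale moves MYC and that median nearly alike, so this is no separate support for the fall.

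Between the sources at 1.2 mg/mL, MYC averaged 362 ± 0.962 CPM with HCC+ and 389 ± 17.8 CPM with HCC- EVs (SD, n = 3 each), and the libraries did not overlap. The difference of -0.10 ± 0.06 did not pass (adjusted p = 0.191), but it passed on total counts alone (-0.26, adjusted p = 0.000419) and with GC and length trends removed (-0.15, adjusted p = 0.00357). At lower doses the order of group means was HCC- 0.048 mg/mL at 510.0 CPM, then HCC+ 0.24 mg/mL at 460, HCC+ 0.048 mg/mL at 449, HCC- 0.24 mg/mL at 444 and the blank at 440.2 CPM. Neighbours in that order overlapped except the first, whose 3 libraries all lay above HCC+ 0.24 mg/mL.

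MAX, the shared partner of MYC and its antagonists, changed least among the called members. It had 51.6, 49.97 and 48.8 CPM with HCC+ at 1.2 mg/mL, 50.1, 45.9 and 50.3 CPM with HCC- at 1.2 mg/mL and 56.1, 52.5 and 55.2 CPM in the blank. The 6 libraries at 1.2 mg/mL lay below the 15 others, which began at 51.7 CPM, again with almost no gap. MAX fell by 0.16 ± 0.06 with HCC- EVs (adjusted p = 0.0303), while with HCC+ EVs the change was -0.12 ± 0.06 (adjusted p = 0.139). The call held in 6 of 13 alternatives. With total counts as the scale the HCC- value was 0.12 (adjusted p = 0.117), and the call was also lost with RLE factors (adjusted p = 0.0572), no filter (adjusted p = 0.119), only the groups compared (adjusted p = 0.198), or without HCC- 1.2 mg/mL replicate 2 (-0.11, adjusted p = 0.204), blank replicate 1 (-0.15, adjusted p = 0.0744) or blank replicate 3 (-0.16, adjusted p = 0.0611). MAX shares 822 exonic bases, 13.1% of its exons, with FNTB on the opposite strand, and reads of the pair cannot be told apart if counting ignored strand.

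MXD4, a MYC antagonist usually found in cells that leave the cycle or differentiate, changed most of all members. It had 98.0, 80.3 and 80.4 CPM with HCC+ at 1.2 mg/mL, 109, 109 and 106 CPM with HCC- at 1.2 mg/mL and 28.6, 33.1 and 28.6 CPM in the blank. The 12 libraries at the lower doses ranged from 28.2 to 39.0 CPM with a median of 30.0, so the groups at 1.2 mg/mL stood wholly apart and the lower doses lay at the blank level. MXD4 rose by 1.52 ± 0.11 on the log2 scale with HCC+ EVs (adjusted p = 5.13e-12), 2.86-fold, and by 1.84 ± 0.11 with HCC- EVs (adjusted p = 4.57e-15), 3.59-fold. Over every alternative setting and left-out library the value with HCC+ EVs stayed between 1.37 and 1.64. Its locus runs from 2247432 to 2262109 on the minus strand of chromosome 4, and no other counted gene shares more than 1.16% of its exons.

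MXD4 was lower with HCC+ than with HCC- EVs at 1.2 mg/mL. It averaged 86.2 ± 10.2 CPM with HCC+ and 108 ± 1.73 CPM with HCC- EVs (SD, n = 3 each), and no HCC+ library reached the HCC- range. The difference was -0.33 ± 0.10 (adjusted p = 0.0128), and it did not pass without HCC+ 1.2 mg/mL replicate 2 (-0.29, adjusted p = 0.0621) or replicate 3 (-0.28, adjusted p = 0.0671). The difference between the sources' steps from 0.24 to 1.2 mg/mL did not pass for MXD4 (-0.23 ± 0.15, adjusted p = 0.297). In this comparison 3 of 9 tested members passed, MXD3 higher and MXD4 and ARRDC4 lower with HCC+ EVs, where 35.3% of all tested genes did (22.6% higher and 12.7% lower). Libraries of the sources did not overlap in 4 of the 9, beside 46.6% of all tested genes. Of those called genes 63.9% were higher with HCC+ EVs, 33.9% on total counts alone and 46.3% with GC and length trends removed.

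MXD1, the first-described MYC antagonist and a gene induced on differentiation, also rose at 1.2 mg/mL of either source. It had 11.1, 11.9 and 10.7 CPM with HCC+ at 1.2 mg/mL, 10.5, 11.5 and 13.95 CPM with HCC- at 1.2 mg/mL and 6.23, 5.74 and 5.39 CPM in the blank. The other 12 libraries spanned 4.88 to 7.58 CPM, all below the 6 at 1.2 mg/mL. MXD1 rose by 0.96 ± 0.14 with HCC+ (adjusted p = 1.84e-06), 1.94-fold, and by 1.05 ± 0.14 with HCC- EVs (adjusted p = 7.28e-08), 2.08-fold. The sources did not differ detectably, with a difference of -0.10 ± 0.13 (adjusted p = 0.601).

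MXD3, the family member linked to S phase rather than to cell cycle exit, moved with HCC- EVs and the other way from its relatives. It had 12.4, 11.7 and 15.2 CPM with HCC+ at 1.2 mg/mL, 9.38, 8.66 and 9.52 CPM with HCC- at 1.2 mg/mL and 13.2, 14.9 and 11.4 CPM in the blank. The HCC- 1.2 mg/mL libraries were the lowest 3 of all 21, and the HCC+ 1.2 mg/mL libraries overlapped the blank. MXD3 fell by 0.52 ± 0.11 with HCC- EVs (adjusted p = 0.000177), and with HCC+ EVs the change was -0.01 ± 0.11 (adjusted p = 0.965). On total counts alone the fall with HCC- EVs was -0.23 (adjusted p = 0.0641).

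The difference between sources at 1.2 mg/mL was 0.51 ± 0.11 for MXD3 (adjusted p = 0.000376), with 13.1 ± 1.84 CPM for HCC+ and 9.19 ± 0.462 CPM for HCC- EVs (SD, n = 3 each). MXD3 was also the only tested member, 1 of 9, whose step from 0.24 to 1.2 mg/mL differed between sources (0.51 ± 0.15, adjusted p = 0.0151), where 21.3% of all tested genes passed (15.1% higher and 6.26% lower). That call was lost without HCC+ 1.2 mg/mL replicate 3 (0.38, adjusted p = 0.0939) and on total counts alone (0.36, adjusted p = 0.0955). The count of MXD3 is uncertain, because it shares 926 exonic bases (18.0%) with RAB24 on the same strand and 1148 (22.3%) with PRELID1 on the opposite strand. PRELID1 averaged 128 CPM over all libraries, against 13.4 CPM for MXD3, and the sources used here do not say whether counting used strand.

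MXI1 and MNT, the remaining antagonists, did not pass at 1.2 mg/mL. MXI1 had 53.4, 59.2 and 50.9 CPM with HCC+, 53.3, 43.5 and 51.3 CPM with HCC- and 52.8, 46.3 and 48.6 CPM in the blank. MNT, the antagonist found in nearly all cells, had 23.3, 19.9 and 21.3 CPM with HCC+, 25.8, 22.8 and 23.96 CPM with HCC- and 17.9, 23.5 and 23.8 CPM in the blank. The groups at 1.2 mg/mL and the blank overlapped in both genes. The differences from the blank were 0.15 ± 0.08 with HCC+ and 0.00 ± 0.08 with HCC- EVs for MXI1, and -0.02 ± 0.11 and 0.15 ± 0.11 for MNT. With GC and length trends removed, MXI1 passed as higher with both sources (0.22 and 0.20, adjusted p = 0.00421 and 0.00509) and MNT as lower with HCC+ EVs (-0.26, adjusted p = 0.0254). On total counts alone MXI1 passed as higher with both (0.27 and 0.29, adjusted p = 0.00767 and 0.00227) and MNT as higher with HCC- EVs (0.43, adjusted p = 0.00209).

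**Figure D2:**
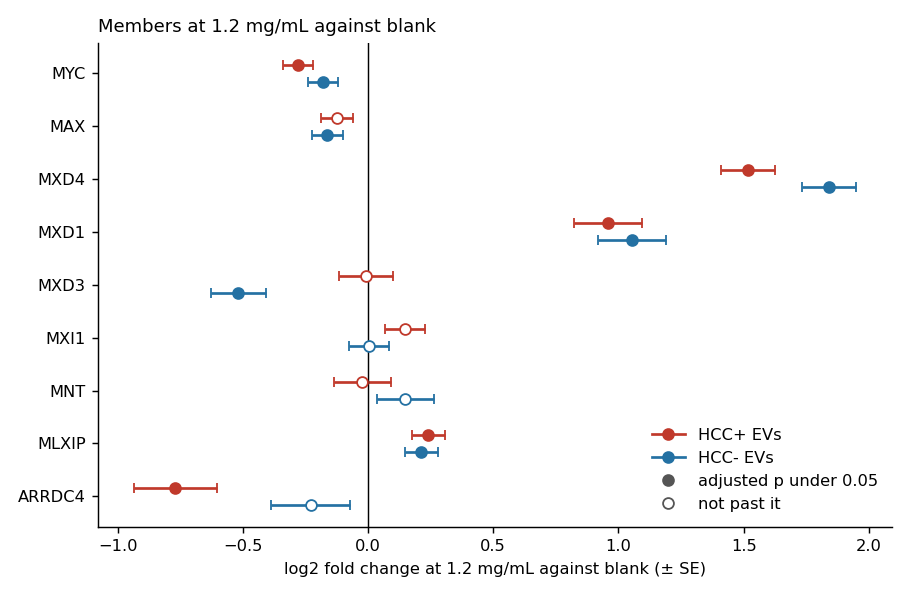
Log2 fold change at 1.2 mg/mL against the blank for the 9 tested members, with bars of ± 1 SE, HCC+ EVs above HCC- EVs for each gene. Filled points passed an adjusted p of 0.05. MXD4 and MXD1 lie farthest to the right with both sources, and ARRDC4 with HCC+ EVs lies farthest to the left at -0.77.

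Because antagonist and MYC proteins compete for MAX and for the same sites, the ratio of their mRNAs within a library is of interest. Such a ratio does not depend on how libraries are scaled. Protein was not measured, so the values below describe mRNA only. These ratios were chosen after the levels had been seen, and GC and length trends were not removed from them. Per length, the log2 ratio of MXD4 to MYC was -2.66 ± 0.16 with HCC+ at 1.2 mg/mL, -2.43 ± 0.09 with HCC- at 1.2 mg/mL and -4.45 ± 0.03 in the blank (SD, n = 3 each). The 3 libraries of each EV group lay above all blank libraries, a difference of 1.79 with HCC+ and 2.02 with HCC- EVs, and the two-sided exact permutation p of 0.1 is the smallest that 3 against 3 allow. MXD1 to MYC was higher by 1.23 with HCC+ and 1.22 with HCC- EVs, again with no overlap (exact permutation p = 0.1 each). The summed antagonists (MXD1, MXD3, MXD4, MXI1 and MNT) stood at 0.380, 0.356 and 0.347 of MYC per length in the HCC+ 1.2 mg/mL libraries, 0.387, 0.347 and 0.348 in the HCC- 1.2 mg/mL libraries and 0.203, 0.179 and 0.204 in the blank. All 6 libraries at 1.2 mg/mL lay above the blank in this sum. With HCC- EVs at 0.048 mg/mL MXD4 to MYC and MXD1 to MYC lay wholly below the blank, with differences of -0.23 and -0.36 (exact permutation p = 0.1 each). The summed antagonists to MYC overlapped the blank there, with a difference of -0.15 (exact permutation p = 0.2). At 1.2 mg/mL MAX to MYC differed by only 0.15 with HCC+ (exact permutation p = 0.2) and 0.01 with HCC- EVs (exact permutation p = 0.9), with overlapping libraries.

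**Figure D3:**
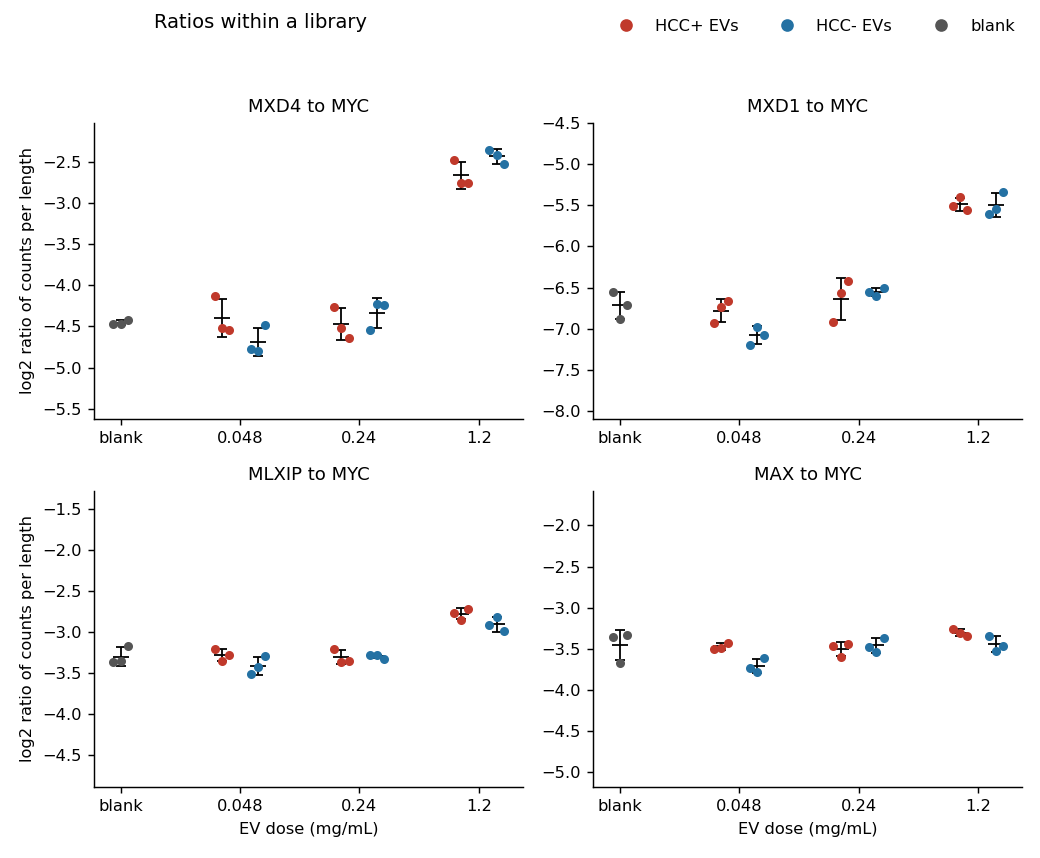
Log2 ratio of counts per transcript length within each library, for MXD4, MXD1, MLXIP and MAX over MYC, against EV dose in mg/mL with the blank at the left. Points are libraries and bars mean ± SD of 3. MXD4 to MYC stands between -2.76 and -2.35 at 1.2 mg/mL of either source, above every other library.

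The glucose-sensing branch starts with MLXIP, the sensor. It had 162, 152 and 167 CPM with HCC+ at 1.2 mg/mL, 149, 167 and 155 CPM with HCC- at 1.2 mg/mL and 124, 144 and 138 CPM in the blank, so all 6 libraries at 1.2 mg/mL lay above the blank. Among the lower doses 2 libraries reached into their range, HCC+ 0.048 mg/mL replicate 1 at 149.5 CPM and HCC- 0.048 mg/mL replicate 3 at 152 CPM. MLXIP rose by 0.24 ± 0.07 with HCC+ (adjusted p = 0.005) and by 0.21 ± 0.07 with HCC- EVs (adjusted p = 0.00739). With GC and length trends removed the values were 0.01 (adjusted p = 0.903) and -0.07 (adjusted p = 0.204), and without blank replicate 1 they were 0.18 (adjusted p = 0.0553) and 0.14 (adjusted p = 0.0916). Scaled to total counts, MLXIP was higher by 0.36 with HCC+ (adjusted p = 0.000133) and by 0.50 with HCC- EVs (adjusted p = 3.79e-07). Within libraries, MLXIP to MYC was higher by 0.52 with HCC+ and by 0.39 with HCC- EVs, with no overlap in either (exact permutation p = 0.1 each, the smallest possible). GC and length trends were not removed from this ratio. With them removed, MYC was at -0.30 with HCC+ and -0.16 with HCC- EVs, beside the MLXIP values of 0.01 and -0.07.

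TXNIP, the best-known target of MLXIP and an inhibitor of thioredoxin, was all but absent from these libraries. It had 6 counts among 984.8 M in all, a rate of 6.09 per 1000 M counts with an exact 95% Poisson interval of 2.24 to 13.3 that covers counting error only. The counts came as 2 in each of 3 libraries, HCC+ 0.048 mg/mL replicate 1, HCC- 1.2 mg/mL replicate 3 and HCC- 0.24 mg/mL replicate 3, and the other 18 libraries had 0. No difference between groups can be tested at this depth. Its neighbours on chromosome 1 were counted, POLR3GL at 3.82 to 8.19 CPM on one side, 13587 bases away, and LINC01719 at 2.90 to 4.42 CPM on the other. In the coordinates deposited with the counts, no other gene shares exons with TXNIP (145992435 to 145996600, minus strand). The treatment of reads that map to several places is unknown here.

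ARRDC4, the other MLXIP target and the closest relative of TXNIP here, was present at a low level and fell with HCC+ EVs. It had 3.63, 4.85 and 3.26 CPM with HCC+ at 1.2 mg/mL, 6.47, 4.86 and 5.69 CPM with HCC- at 1.2 mg/mL and 6.50, 6.30 and 7.19 CPM in the blank. All HCC+ 1.2 mg/mL libraries lay below the blank, and the HCC- 1.2 mg/mL libraries reached into the blank range. ARRDC4 fell by 0.77 ± 0.16 with HCC+ EVs (adjusted p = 0.000434), and with HCC- EVs the change was -0.23 ± 0.16 (adjusted p = 0.231).

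Between sources at 1.2 mg/mL, ARRDC4 averaged 3.91 ± 0.835 CPM with HCC+ and 5.67 ± 0.807 CPM with HCC- EVs (SD, n = 3 each), a difference of -0.54 ± 0.16 (adjusted p = 0.00892). That call was lost without HCC+ 1.2 mg/mL replicate 3 (-0.42, adjusted p = 0.0769) or HCC- 1.2 mg/mL replicate 1 (-0.44, adjusted p = 0.0592). The difference between the sources' steps from 0.24 to 1.2 mg/mL, -0.50 ± 0.23, did not pass (adjusted p = 0.115). In the main fit MLXIP and its target ARRDC4 had opposite signs with HCC+ EVs, 0.24 and -0.77. With GC and length trends removed MLXIP was at 0.01 (adjusted p = 0.903) and ARRDC4 at -0.66. Without blank replicate 1 the MLXIP value of 0.18 did not pass (adjusted p = 0.0553).

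Most of these differences appeared between 0.24 and 1.2 mg/mL. From 0.24 to 1.2 mg/mL of HCC+ EVs, MXD4 (1.47 ± 0.11), MXD1 (0.79 ± 0.13) and MLXIP (0.19 ± 0.07) rose and MYC (-0.34 ± 0.06) and ARRDC4 (-0.63 ± 0.16) fell, 5 of 9, where 29.2% of all tested genes passed (13.7% higher and 15.5% lower). Over the same step of HCC- EVs, MXD4 (1.701 ± 0.11), MXD1 (0.88 ± 0.13) and MLXIP (0.20 ± 0.07) rose and MXD3 (-0.62 ± 0.11), MYC (-0.19 ± 0.06) and MAX (-0.18 ± 0.06) fell, 6 of 9, where 51.8% passed (23.9% higher and 28.0% lower). Libraries of the doses did not overlap in 6 of the 9 with each source, beside 43.7% of all tested genes with HCC+ and 58.1% with HCC- EVs. The MLXIP calls were lost without any 1 of 4 libraries with HCC+ (HCC+ 1.2 mg/mL replicates 1 and 3, HCC+ 0.24 mg/mL replicates 2 and 3) and of 2 with HCC- EVs (HCC- 1.2 mg/mL replicate 2, HCC- 0.24 mg/mL replicate 3), the MAX call without HCC- 1.2 mg/mL replicate 2, and the HCC- MYC call without HCC- 1.2 mg/mL replicate 1, at adjusted p of 0.0615 to 0.161. With GC and length trends removed the MLXIP step was 0.03 with HCC+ (adjusted p = 0.646) and -0.04 with HCC- EVs (adjusted p = 0.474). The MAX call was also lost with no filter (adjusted p = 0.0802) and with only the groups compared (adjusted p = 0.0804). On total counts alone the HCC- steps of MAX and MYC were 0.09 and 0.07. In the main fit the genes and signs of the dose step are those of the comparison with the blank, and both comparisons use the same libraries at 1.2 mg/mL.

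At the lower doses the members lay near the blank, with 1 exception. None of the 9 passed with HCC+ EVs at 0.24 mg/mL, where 0.00511% of all tested genes (1 gene) did, nor at 0.048 mg/mL or with HCC- EVs at 0.24 mg/mL, where edgeR called 0 genes. In the last 2 comparisons 944 and 905 genes had an unadjusted p under 0.05, and DESeq2 called 1 and 0. Members whose libraries did not overlap with the blank numbered 0 with HCC+ EVs at 0.24 mg/mL, beside 8.94% of all tested genes, 0 at 0.048 mg/mL, beside 8.45%, and 1 with HCC- EVs at 0.24 mg/mL, beside 7.61%. With HCC- EVs at 0.048 mg/mL, MYC rose by 0.21 ± 0.06 (adjusted p = 0.0176) and MXD3 by 0.36 ± 0.11 (adjusted p = 0.0246), 2 of 9, where 16.4% of all tested genes passed (8.28% higher and 8.16% lower), and 3 of 9 did not overlap with the blank, beside 27.6%. MYC had 516, 521 and 493 CPM in those libraries against 422, 489 and 409 CPM in the blank, and MXD3 had 18.3, 15.4 and 17.1 CPM against 13.2, 14.9 and 11.4 CPM. These were the highest group levels of both genes, and the opposite direction from HCC- EVs at 1.2 mg/mL. Neither call was kept with GC and length trends removed (0.10, adjusted p = 0.330, and 0.12, adjusted p = 0.681), with only these 2 groups fitted, or without HCC- 0.048 mg/mL replicate 1, blank replicate 1 or blank replicate 3. MYC also missed it without HCC- 0.048 mg/mL replicate 2 (0.20, adjusted p = 0.0780), and MXD3 without replicate 3 (0.35, adjusted p = 0.0607).

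Between sources at the lower doses no member passed. At 0.24 mg/mL edgeR called 0 of all tested genes, with 462 at an unadjusted p under 0.05 and 0 called by DESeq2, and 0 of the 9 members did not overlap, beside 7.32%. At 0.048 mg/mL, where 3.54% of tested genes passed (1.08% higher and 2.46% lower), MYC differed by -0.18 ± 0.06 (adjusted p = 0.0680), MXD3 by -0.31 ± 0.11 (adjusted p = 0.0799) and MNT by -0.33 ± 0.11 (adjusted p = 0.0827), and each had HCC+ libraries wholly below the HCC- ones, where 32.3% of tested genes had no overlap.

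Genes that MYC is known to switch on were counted separately from MYC itself. Of 24 listed MYC-activated genes 23 were tested, and 18 fell and 1 rose with HCC+ EVs at 1.2 mg/mL, with a median log2 fold change of -0.42 beside 0.01 over all tested genes. With HCC- EVs 20 fell and 1 rose, with a median of -0.79 beside 0.05. Among all tested genes 17.4% fell and 15.6% rose with HCC+, and 28.5% fell and 24.8% rose with HCC- EVs. On total counts alone 16 and 18 still fell, with medians of -0.30 and -0.51 beside 0.13 and 0.33. These lists were chosen with results of these data known, so the counts are a description.

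ODC1, the first enzyme of polyamine synthesis and a classic MYC target, had 461 ± 34.2 CPM with HCC+, 352 ± 19.2 CPM with HCC- and 882 ± 10.1 CPM in the blank (SD, n = 3 each). It fell by 0.94 ± 0.07 with HCC+ and by 1.32 ± 0.07 with HCC- EVs (adjusted p = 1.17e-11 and 3.91e-16). NCL, a nucleolar protein of ribosome assembly, fell by 0.57 ± 0.06 with HCC+ EVs, SHMT2, a mitochondrial enzyme of serine breakdown, by 0.60 ± 0.06, and with HCC- EVs SHMT2 fell by 1.10 ± 0.06 and HSPD1, a mitochondrial chaperone, fell by 1.265 ± 0.07. The exception was TFRC, the transferrin receptor, which rose with both sources (0.59 ± 0.07 and 0.23 ± 0.07), and it was singled out after its values had been seen.

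MYC-activated genes were higher with HCC+ than with HCC- EVs at 1.2 mg/mL, 19 of 23 called higher and 0 lower, with a median of 0.31 beside 0.01 over all tested genes. Among all tested genes 22.6% were called higher and 12.7% lower. CDK4, a kinase that opens S phase, had 137 ± 3.66 CPM with HCC+ and 88.6 ± 5.62 CPM with HCC- EVs, a difference of 0.63 ± 0.06 (adjusted p = 2.10e-09). HSPD1 differed by 0.67 ± 0.07 and LDHA, which turns pyruvate into lactate, by 0.80 ± 0.09. On total counts alone 10 were called higher and 1 lower, with a median of 0.14 beside -0.16 over all tested genes. MYC mRNA was not ordered that way: its own difference was -0.10.

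Of the 7 listed MYC-repressed genes, which MYC holds down through MIZ1 or other partners, 4 rose and 0 fell with each source, with medians of 0.42 for HCC+ and 0.22 for HCC- EVs. Over all tested genes 15.6% rose with HCC+ and 24.8% with HCC- EVs, with medians of 0.01 and 0.05. CDKN1A (p21), an inhibitor of cyclin-dependent kinases, had 298 ± 2.06 CPM with HCC+, 260 ± 15.9 CPM with HCC- and 199 ± 13.3 CPM in the blank (SD, n = 3 each), changes of 0.59 ± 0.06 and 0.39 ± 0.06. CDKN2B (p15) rose by 0.73 ± 0.12 with HCC+ and by 1.25 ± 0.12 with HCC- EVs, and CDKN1C (p57) by 0.92 ± 0.14 and 0.88 ± 0.14. Between the sources at 1.2 mg/mL 1 was called higher, CDKN1A, and 1 lower, CDKN2B, where 22.6% of all tested genes were higher and 12.7% lower. The CDKN1A call was lost on total counts alone (0.03, adjusted p = 0.665) and without HCC- 1.2 mg/mL replicate 1 (0.16, adjusted p = 0.0607), and the list as a whole had 0 higher and 3 lower on total counts alone and 1 higher and 3 lower with GC and length trends removed.

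**Figure D4:**
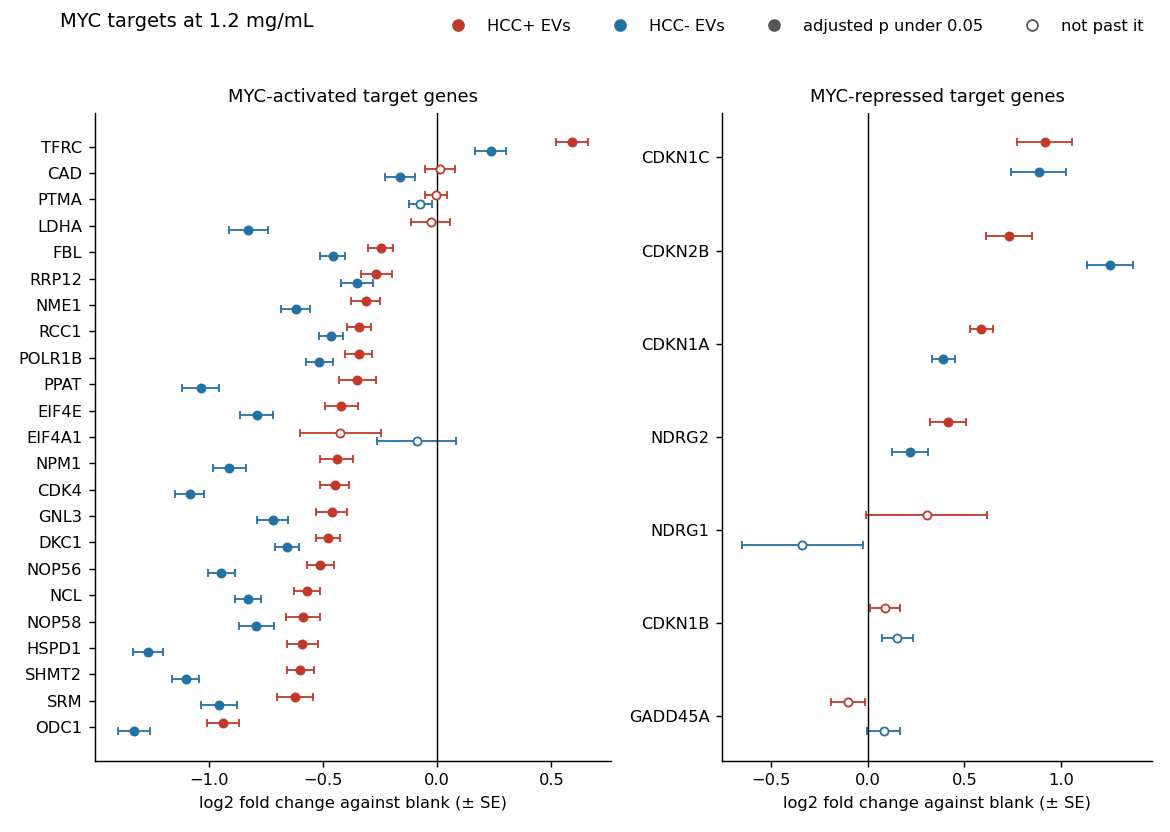
Log2 fold change at 1.2 mg/mL against the blank for 23 MYC-activated and 7 MYC-repressed genes, with bars of ± 1 SE, HCC+ EVs above HCC- EVs for each gene. Filled points passed an adjusted p of 0.05. Most activated targets lie left of 0, farther with HCC- than with HCC+ EVs, ODC1 farthest, and TFRC lies right of 0. EIF4A1, at 3.08 CPM with HCC+ EVs, overlaps a readthrough gene and its count is uncertain.

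Other factors of the network moved in both directions. Of 7 listed, 6 were tested, and 2 rose and 2 fell with HCC+, 1 rose and 2 fell with HCC- EVs. Over all tested genes 15.6% rose and 17.4% fell with HCC+, and 24.8% rose and 28.5% fell with HCC- EVs. USF1, which binds the same E-boxes without MAX, rose to 76.1 ± 1.84 CPM with HCC+ and 105 ± 4.25 CPM with HCC- EVs, against 58.9 ± 1.34 CPM in the blank (SD, n = 3 each). Its changes were 0.37 ± 0.06 and 0.83 ± 0.06, and it was lower with HCC+ than with HCC- EVs (-0.46 ± 0.06, adjusted p = 2.07e-07). MLX, the partner of MLXIP, fell by 0.22 ± 0.06 with HCC+ and by 0.51 ± 0.06 with HCC- EVs, the HCC+ call being lost on total counts alone (-0.10, adjusted p = 0.199) and with only the groups compared (-0.21, adjusted p = 0.0635). MLXIPL (ChREBP), the liver's own glucose sensor, rose with HCC+ EVs by 0.40 ± 0.11 and was at 0.04 ± 0.11 with HCC- EVs (adjusted p = 0.765). MGA, a MAX partner that opposes MYC, fell by 0.42 ± 0.08 with HCC+ and by 0.26 ± 0.08 with HCC- EVs, the second at 0.02 on total counts alone and lost with only the groups compared or without HCC- 1.2 mg/mL replicate 1, replicate 2 or blank replicate 3 (adjusted p of 0.0874 to 0.111).

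Genes that set how long MYC protein lasts were measured next. Of 10 turnover genes 1 rose and 3 fell with HCC+, 1 rose and 7 fell with HCC- EVs, with medians of -0.12 and -0.46. Over all tested genes 17.4% fell with HCC+ and 28.5% with HCC- EVs, with medians of 0.01 and 0.05. SKP2, a ubiquitin ligase subunit that acts on MYC, had 59.3 ± 5.68 CPM with HCC+, 33.8 ± 2.95 CPM with HCC- and 68.5 ± 6.08 CPM in the blank (SD, n = 3 each). CIP2A, which shields MYC from the phosphatase PP2A, fell by 0.39 ± 0.11 with HCC+ and by 1.28 ± 0.11 with HCC- EVs, and differed by 0.88 ± 0.11 between sources. On total counts alone 1 fell with HCC+ and 4 with HCC- EVs, and without HCC+ 1.2 mg/mL replicate 1 or blank replicate 3 the falls with HCC+ EVs were 0 and 1.

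Of 8 MYC coactivators 5 fell and 1 rose with each source (medians of -0.41 and -0.49), among them the helicase RUVBL1 (-0.42 ± 0.05 and -0.84 ± 0.05) and the scaffold WDR5 (-0.43 ± 0.06 and -0.76 ± 0.06). Of 9 corepressors that the MXD proteins and MNT recruit, 0 rose and 3 fell with HCC+, 2 rose and 5 fell with HCC- EVs. Beside both lists, 15.6% of all tested genes rose and 17.4% fell with HCC+, and 24.8% rose and 28.5% fell with HCC- EVs. HDAC1, a histone deacetylase, fell by 0.29 ± 0.06 with HCC+ and by 0.78 ± 0.06 with HCC- EVs, and its partner RBBP7 by 0.42 ± 0.06 and 0.93 ± 0.06. So the corepressor genes that moved did not follow MXD4 and MXD1 in direction, NCOR1 and SIN3B with HCC- EVs excepted (0.38 ± 0.07 and 0.25 ± 0.07, SIN3B named after its values were seen).

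TXNIP acts on the thioredoxin system, which was measured well. Of 8 genes 1 rose and 5 fell with HCC+, 1 rose and 6 fell with HCC- EVs, with medians of -0.21 and -0.53, where 17.4% and 28.5% of all tested genes fell. On total counts alone 2 fell with HCC+ EVs, and without HCC+ 1.2 mg/mL replicate 1 or blank replicate 1 it was 3. TXN, the thioredoxin that TXNIP binds, had 208 ± 13.8 CPM with HCC+, 153 ± 3.62 CPM with HCC- and 288 ± 13.2 CPM in the blank (SD, n = 3 each). It fell by 0.47 ± 0.07 with HCC+ and by 0.91 ± 0.07 with HCC- EVs (adjusted p = 1.34e-06 and 4.26e-13), while the peroxidase PRDX1 rose by 0.26 ± 0.05 with each. Of the 3 other tested alpha-arrestins, ARRDC1 rose with both sources (0.46 ± 0.08 and 0.39 ± 0.08) and ARRDC2 with HCC- EVs (0.68 ± 0.10). ARRDC3 did not pass (-0.24 ± 0.18 and -0.17 ± 0.18).

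Glucose uptake and the first glycolytic steps, which TXNIP and ARRDC4 restrain, were measured in 14 genes. With HCC+ EVs 4 rose and 2 fell (median -0.03), with HCC- EVs 4 rose and 8 fell (median -0.43), and 8 were called higher and 2 lower with HCC+ than with HCC- EVs (median 0.46). Over all tested genes 15.6% rose and 17.4% fell with HCC+, and 24.8% rose and 28.5% fell with HCC- EVs. Between sources 22.6% of them were called higher and 12.7% lower. The transporter SLC2A6 had 41.5 ± 6.73 CPM with HCC+, 39.5 ± 3.78 CPM with HCC- and 18.2 ± 0.711 CPM in the blank, and the transporter SLC2A12 rose by 1.44 ± 0.19 with HCC+ and by 1.09 ± 0.19 with HCC- EVs. PFKL, a phosphofructokinase subunit, fell by 0.41 ± 0.14 with HCC+ and by 1.49 ± 0.15 with HCC- EVs, the largest difference between sources in this list (1.08 ± 0.14, adjusted p = 1.09e-05). The fall counts with HCC+ EVs were not firm: 0 of the 14 fell without HCC+ 1.2 mg/mL replicate 1, blank replicate 2 or blank replicate 3, and 4 with GC and length trends removed.

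Over the 7 group means, the genes whose pattern was most like that of MYC among the 12263 genes averaging 1 log2 CPM or more were DDX51 (Pearson r = 0.997), UQCC3 (0.995), SLC39A3 (0.994), HGH1 (0.992) and NOB1 (0.989). Their mean log2 CPM at 1.2 mg/mL lay 0.16 to 0.50 below the blank with HCC+ and 0.11 to 0.34 below it with HCC- EVs. For MXD4, looked up after its values had been seen, the nearest were GPR161, KIF3C and RFX5 (r of 0.998 to 0.999), all set by the 2 groups at 1.2 mg/mL. Such r values over 7 points, picked from so many genes that share libraries, are descriptions. TXNIP, with 6 counts, has no pattern to match.

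**Figure D5:**
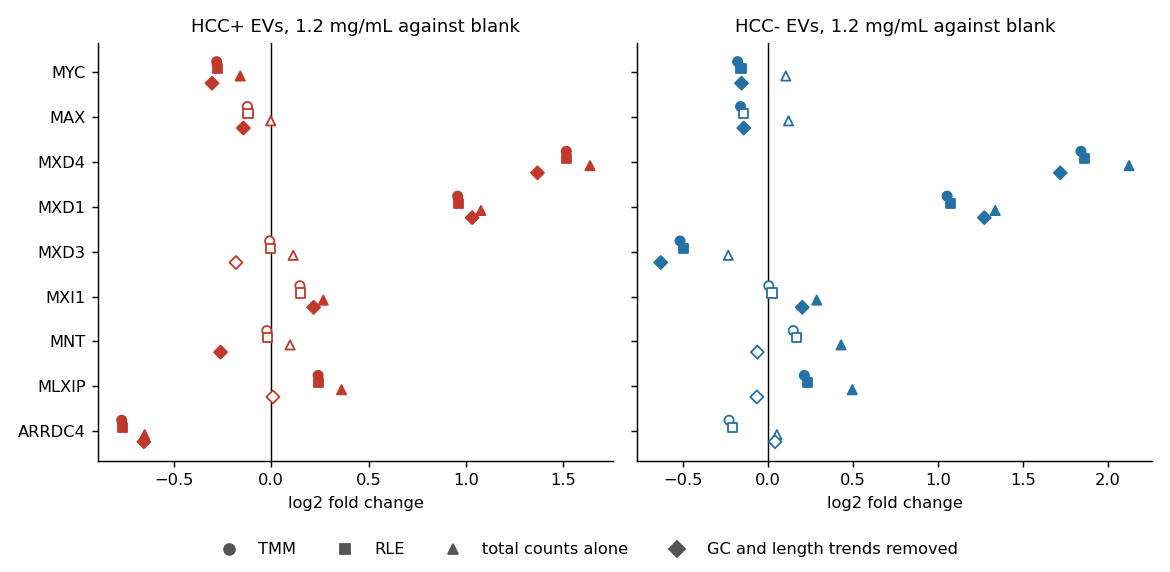
Log2 fold change of the 9 tested members at 1.2 mg/mL against the blank under 4 scalings of the libraries, HCC+ EVs in the left panel and HCC- EVs in the right. Filled symbols passed an adjusted p of 0.05. MXD4 and MXD1 pass as higher and keep their place under all 4 with both sources, MYC and MAX with HCC- EVs cross 0 on total counts alone, and MLXIP is near 0 with GC and length trends removed.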

How the data were processed

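Per the submitters' processing notes, the authors used cutadapt 3.4, HISAT2 2.2.1 with the GRCh38 build, and featureCounts 2.0.1. The deposited values are raw read counts per gene, 1 column for each of 21 libraries of poly(A) RNA made with NEBNext Ultra II, per the labels' protocols. The sources used here give no annotation release and no setting for strand or multiply mapped reads.

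From the counts, edgeR 4.0.16 (R 4.3.3, limma 3.58.1) was used with filterByExpr, TMM factors (0.936 to 1.17) and a robust quasi-likelihood fit of 7 group means over all libraries, with 12 comparisons and Benjamini-Hochberg adjustment over 19556 genes in each. Tested genes held 99.96% of counts. The procedure was tested on simulated data. Alternatives were RLE factors, total counts alone, no filter, DESeq2 1.42.0, a replicate block, GC and length trends removed, fits of the compared groups alone, and leaving out libraries in turn. Ratios within libraries were added after seeing the data and tested by exact permutation with scipy 1.17.1.

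All 10 members are named. Of each gene list, up to 3 called genes with the smallest p in each main comparison at 1.2 mg/mL could be named, and the 5 genes most like MYC. The members and lists were chosen with earlier results of these data known. Promoter sequences are from RefSeq (GRCh38.p14), in which 9 members matched; MYC sequence is not shown. No 2 libraries held identical values.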

Additional observations from a re-analysis of the deposited data

Results flagged for a closer look

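The step from 0.24 to 1.2 mg/mL differed between sources for MXD3, an antagonist of MYC, by 0.5096 on the log2 scale (SE 0.15), tested as an interaction in edgeR's quasi-likelihood fit. MXD3 changed by -0.11 over that step with HCC+ EVs and by -0.62 with HCC- EVs. It had 12.4, 11.7 and 15.2 CPM with HCC+ at 1.2 mg/mL and 9.38, 8.66 and 9.52 CPM with HCC- at 1.2 mg/mL. Its exons overlap those of PRELID1 and RAB24, and their part in this difference was not tested.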

How the results depend on the processing

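Of 28 member differences called in any comparison, 14 passed in the same direction under every alternative and left-out library, among them MXD4 and MXD1 at 1.2 mg/mL against the blank and against 0.24 mg/mL with both sources. Reversed values were, on total counts alone with HCC- EVs at 1.2 mg/mL against the blank, 0.104 for MYC, 0.120 for MAX, 0.0247 for MGA and 0.0137 for KRT8, and against 0.24 mg/mL 0.0679 for MYC and 0.0853 for MAX. With GC and length trends removed MLXIP was at -0.0661 against the blank and -0.0384 against 0.24 mg/mL of HCC- EVs. The cause was not tested. Members called with HCC- EVs at 0.048 mg/mL numbered 2, and 0 with GC and length trends removed or only the groups compared, and 0 to 2 with a library left out. Between sources at 1.2 mg/mL they numbered 3, 5 on total counts alone and 1 to 3 with a library left out. At 0.048 mg/mL they numbered 0, 1 with no filter, 3 with DESeq2 and 3 with only the groups compared. For the difference of dose steps they numbered 1, 3 on total counts alone, 3 with GC and length trends removed and 0 to 2 with a library left out.

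Genes called with HCC- EVs at 0.048 mg/mL numbered 3216, 108 with GC and length trends removed, 1976 with only the groups compared, 1 without blank replicate 1, 12 without blank replicate 3 and 5726 without blank replicate 2. Between sources at 0.048 mg/mL they numbered 693, 1483 with no filter, 2109 with DESeq2, 49 with GC and length trends removed, 3641 with only the groups compared and 2 to 258 without 1 of 5 libraries. With HCC+ EVs at 0.24 mg/mL the 1 gene called became 25 with no filter, 3 with DESeq2, 8 with GC and length trends removed, 2 with only the groups compared and 21 or 7 without HCC+ 0.24 mg/mL replicate 1 or blank replicate 2. The remaining lower-dose comparisons, at 0 genes, gave at most 9. Little pairing of libraries by replicate number was seen, with 1 of 63 same-numbered pairs having residuals correlated above 0.1. Such correlations cannot show that the libraries were unpaired. With the replicate block 1091 genes were called between sources at 0.048 mg/mL. Of called genes, the share that was higher moved from scaling to scaling: 47.0% over the HCC+ dose step and 69.4% on total counts alone, 46.1%, 71.3% and with GC and length trends removed 57.8% over the HCC- step, and 70.6%, 37.8% and 51.6% for the difference of steps. Against the blank at 1.2 mg/mL of HCC- EVs it was 57.3% with those trends removed, at 0.048 mg/mL of HCC- EVs 50.4% and 63.9%, and between sources at 0.048 mg/mL 30.6% and, on total counts alone, 58.4%. TXNIP is limited by its counts at any setting.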
